A study of Saccharomyces cerevisiae with 10 samples.

Results

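Transcript levels in the cdc4-3 strain of the budding yeast Saccharomyces cerevisiae were compared between room temperature and 35 °C. The strain carries a temperature-sensitive allele of CDC4 and was measured on 2 of the 10 arrays of the series, 1 at each temperature. The change of a gene is its level at 35 °C minus its level at room temperature, both on a log2 scale, so that a change of 1 is 2-fold. A gene was kept where the higher of its levels exceeded the 25th percentile of that array, which was 9.99 at room temperature and 10.11 at 35 °C, and 4277 of 5449 measured genes were kept. COX23, PRK1 and RIM4 lay just inside this limit, with higher levels of 10.11, 9.99 and 10.11, and CWC21, MPS1 and PEX17 just outside it, with 10.11, 9.98 and 9.98.

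The cdc4-3 cells (strain py187) were grown to mid-log phase in YPDA, which is rich in glucose and supplemented with adenine, at 25 °C, the room temperature of the labels. They were then kept for 1 h at that temperature or at 35 °C, where the mutant protein is inactivated. Arrays from 4 other temperature-sensitive strains treated in the same way served as a reference range, the lowest to the highest of their 4 changes: cdc53-1 in strain py175, cdc34-3 in py24, skp1-11 in W303 and skp1-25 in py1374. These alleles affect the core of the complex in which Cdc4 works, and the strains are not replicates of cdc4-3. No strain with an intact complex was analysed here, so warming and the loss of Cdc4 cannot be told apart. With 1 array a side, a change has no replicate error and no test, and "rose" and "fell" mark a change of at least 1 on the log2 scale.

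Cdc4 is an F-box protein, the part of an SCF ubiquitin ligase that binds the substrate. Skp1 joins it to the cullin Cdc53, and the conjugating enzyme Cdc34 supplies ubiquitin, after which the substrate is degraded by the proteasome. The substrates of SCF-Cdc4 include Sic1, which inhibits the cyclin-dependent kinase before S phase, Far1, which arrests cells in response to mating pheromone, and Gcn4, the activator of amino acid synthesis genes. Cells that lack Cdc4 function are known to arrest before DNA replication with high Sic1 and many buds.

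Both cdc4-3 arrays had the transcripts of haploid cells of mating type a. The receptor gene STE2 had levels of 13.21 at room temperature and 12.70 at 35 °C, the pheromone gene MFA1 at 12.32 and 12.27, and the agglutinin gene AGA2 at 12.09 and 11.41. The alpha-factor protease gene BAR1 was low, at 7.57 and 7.26, and ASG7 stood at 8.97 and 9.44. All 4 alpha-specific genes were under the limit for kept genes. The CDC4 transcript itself stood at 11.39 and 11.77, and since the allele acts on the protein this level does not check the label. Of the other strains, cdc53-1 stood apart in these genes on its 2 arrays, with STE2 at 7.39 and 6.41, MFA1 at 7.29 and 7.44 and AGA2 at 6.99 and 6.97, where the lowest levels in cdc34-3, skp1-11 and skp1-25 were 12.14, 11.66 and 10.98. All 5 kept a-specific genes and 8 of 9 kept haploid-specific genes were at or under the 25th percentile on both cdc53-1 arrays, against 3.23% of all kept genes. For mating genes the range is therefore also given without cdc53-1.

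Rises outnumbered falls in cdc4-3. Among kept genes 122 rose (2.85%) and 24 fell (0.561%). Of the same genes 78 rose in cdc53-1 (1.82%), 84 in cdc34-3 (1.96%), 98 in skp1-11 (2.29%) and 58 in skp1-25 (1.36%), while 59 (1.38%), 29 (0.678%), 12 (0.281%) and 24 (0.561%) fell. In cdc4-3, 49 rises passed the limit only through the 35 °C array and 18 falls only through the room temperature array, so such genes had to differ to be counted. The balance depends on scaling, because the median of the 35 °C array was 0.12 above that of the room temperature array. Rises made up 83.6% of all calls with the values as deposited, 69.2% after each array was centred on its median (92 rises and 41 falls) and 70.5% after quantile normalization (91 and 38). The median change over all kept genes was 0.09 as deposited and -0.03 under either scaling, and list medians below are to be read against 0.09.

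**Figure D1:**
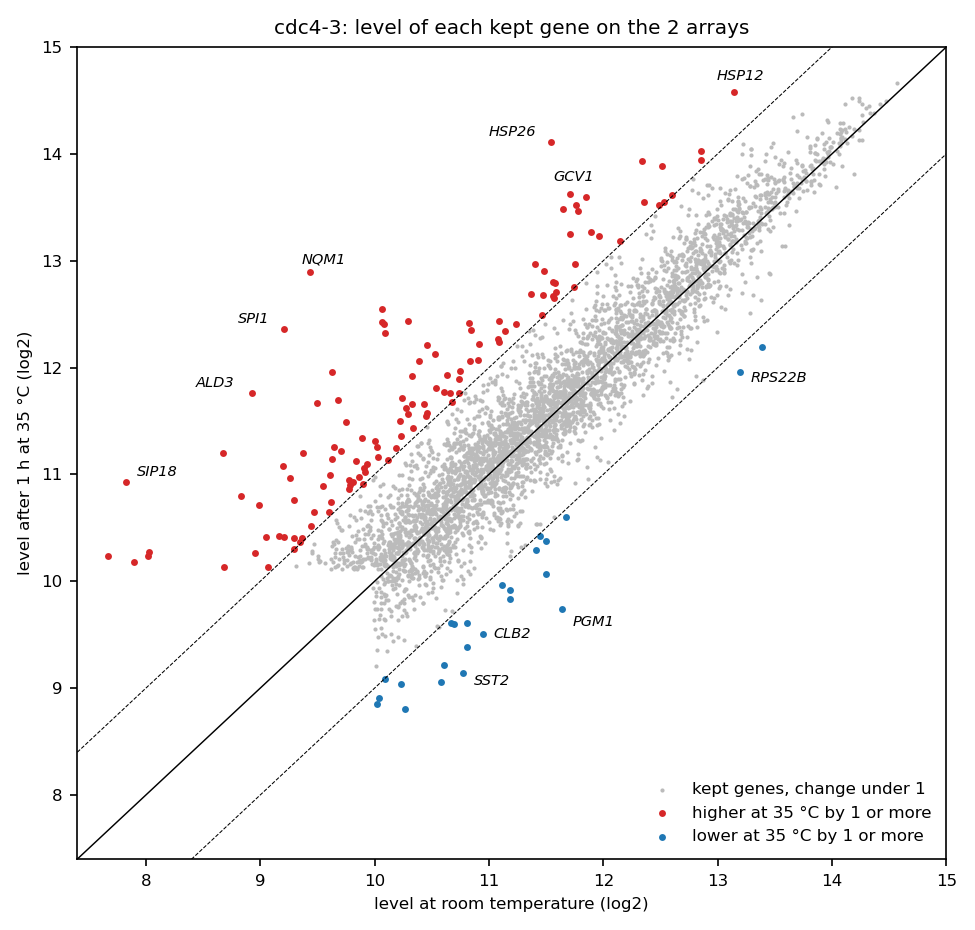
Level of each of the 4277 kept genes in cdc4-3 at room temperature (horizontal axis, log2) and after 1 h at 35 °C (vertical axis, log2), 1 point a gene. The solid line marks equal levels, the dashed lines a change of 1 either way, and the 122 coloured points above the upper line, led by NQM1 (9.43 to 12.90), outnumber the 24 below the lower line.

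Most of what rose in cdc4-3 was also higher at 35 °C elsewhere. Of the 122 rises, 109 had a change above 0 in all 4 other strains, 17 reached 1 in all 4 and 42 reached it in none. Of the 24 falls, 18 had a change below 0 in all 4 others, and 7 reached -1 in none. No gene, 0 of 4277, had a change of at least 1 in cdc4-3 and the opposite sign in all 4 others. Across the kept genes, the cdc4-3 changes correlated with those of skp1-11 (r = 0.68), cdc53-1 (0.65), skp1-25 (0.61) and cdc34-3 (0.58), where genes are not independent replicates and each strain has its own room temperature array. Of the rises, 60 were shared with skp1-11, which is 49.2% of those in cdc4-3 and 61.2% of those in skp1-11, and 41 with cdc34-3, which is 33.6% and 48.8%.

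A change above the range of the 4 other strains was found in 1207 kept genes (28.2%) and one below it in 473 (11.1%). After median centring these were 863 (20.2%) and 791 (18.5%), so the excess of genes above the range depends on the scaling. Among the 122 rises 73 lay above the range, and among the 24 falls 16 lay below it. By the stricter measure of at least 0.5 beyond the range, 32 genes were above (0.748%) and 12 below (0.281%).

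Transcripts of the ligase did not reach 1 in either direction. Of 10 kept genes of the SCF core and the Rub1 pathway, which modifies the cullin, 0 rose and 0 fell. Over all kept genes 2.85% rose and 0.561% fell, so 0 of 10 is near those shares. The list median was 0.31, above that of all kept genes, and -0.08 to 0.23 in the other strains. Above 0 were 8 of the 10 and above the range 3, against 62.7% and 28.2% of all kept genes. CDC34 went from 10.41 to 10.96 and CDC53 from 11.60 to 11.15, while SKP1 stood at 12.51 and 12.75. SGT1, which helps to assemble Skp1 complexes, went from 10.96 to 11.33, a change of 0.37 that was just above the other strains (-0.01 to 0.33). Among F-box genes, 0 of 12 kept genes rose or fell, again near the shares of all kept genes, and the median was 0.19 (others 0.09 to 0.25). Changes were 0.52 for MET30, which represses sulfur amino acid synthesis, 0.73 for DAS1 and -0.14 for GRR1, the F-box gene of glucose signalling and G1 cyclin turnover. CTF13, a kinetochore protein gene, was not kept, at 8.10 and 9.28.

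Of the 10 genes listed for Cdc4 substrates, 8 were kept, 0 rose and 1 fell, against 2.85% and 0.561% of all kept genes. SIC1 went from 11.35 to 11.95, a change of 0.60 where the other strains ranged from -0.29 to 0.27. GCN4 went from 13.58 to 13.91 (0.33, others -0.02 to 0.27). ASH1, which encodes a daughter-cell repressor of the HO gene, went from 11.95 to 12.89 (0.95, others -0.42 to 0.86). These 3 substrate transcripts lay above the range of the other strains, and after median centring 1 of the 8 did, against 28.2% and 20.2% of all kept genes. FAR1 fell from 11.50 to 10.38, a change of -1.12. In cdc34-3, skp1-11 and skp1-25 its changes were -0.99, -1.08 and -1.47, and in cdc53-1 it was dim on both arrays, at 5.80 and 6.06. HST3, a histone deacetylase gene of the sirtuin family, went from 10.72 to 9.89, the cyclin gene CLB6 from 10.59 to 10.96 and TEC1 from 10.77 to 10.61, and the calcineurin regulator gene RCN1 had a change of 0.16. CDC6 and ECO1 were not kept.

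Stress genes led the rises, and 8 of the 15 largest were on the list of genes induced by the activators Msn2 and Msn4. NQM1, a transaldolase gene, went from 9.43 to 12.90, a rise of 3.46 (others 1.88 to 2.87). SPI1, a cell wall protein gene, went from 9.21 to 12.36, a rise of 3.15 (others 1.39 to 2.40). SIP18, a gene of desiccation tolerance, went from 7.83 to 10.93, a rise of 3.10 (others -0.19 to 1.53). All of these lay above the other strains, and SIP18 lay farther above them than any other kept gene, by 1.57. The aldehyde dehydrogenase gene ALD3 rose by 2.84 from 8.93 to 11.76, the transketolase gene TKL2 by 2.52 from 8.68 to 11.20 and the peroxiredoxin gene TSA2 by 2.49 from 10.06 to 12.55. Each of these was also above the range. HSP26, a small heat shock protein gene, rose by 2.57 from 11.54 to 14.11, and MOH1 by 2.57, and both stayed inside it.

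**Figure D2:**
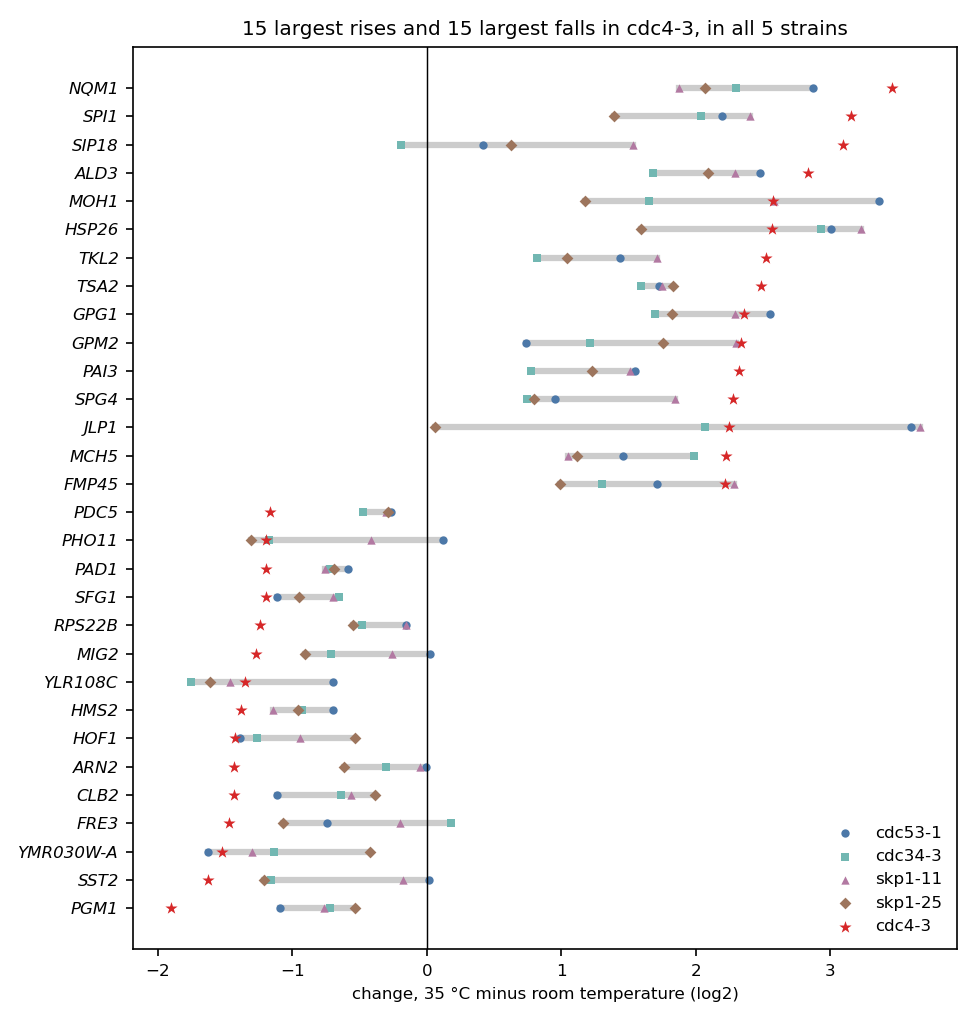
Change at 35 °C (log2, horizontal axis) of the 15 genes that rose most and the 15 that fell most in cdc4-3 (stars), with each of the 4 other strains as a symbol and their range as a grey bar. SIP18 stands at 3.10 against a highest other value of 1.53, PGM1 at -1.90 against a lowest of -1.09, and HSP26, MOH1 and JLP1 lie inside the bar.

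Of 52 measured genes of the Msn2 and Msn4 list, 49 were kept, 25 rose and 0 fell, against 2.85% and 0.561% of all kept genes. Over all 52, kept or not, 27 changed by at least 1 upward. The list median was 1.01 in cdc4-3, against 0.09 over all kept genes, and 0.55, 0.60, 0.86 and 0.48 in cdc53-1, cdc34-3, skp1-11 and skp1-25, where the kept-gene medians were -0.02, 0.04, 0.08 and 0.01. In cdc4-3, 26 of the 49 lay above the range and 1 below it, against 28.2% and 11.1% of all kept genes. After centring 24 lay above it and 2 below, against 20.2% and 18.5%. The activators differed from their targets, since MSN4 went from 10.23 to 10.38 and MSN2 from 11.10 to 11.03. HSP12, a membrane-stabilising protein gene, was already high at 13.14 and rose to 14.58. DCS2, a regulator of the cap-scavenging enzyme Dcs1, rose from 10.29 to 12.44 (others 0.89 to 1.56), and TFS1, which encodes an inhibitor of carboxypeptidase Y, from 11.65 to 13.49.

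Among kept reserve carbohydrate genes the changes that reached 1 upward lay in breakdown and in phosphoglucomutase, while most synthesis genes were higher by less. This split depends on the filter, since GAC1, also on the list but dim and not kept, changed by 1.495, from 7.19 to 8.69. GAC1 was named after its value was seen. Among 16 kept genes of glycogen and trehalose metabolism 3 rose and 1 fell, against 2.85% and 0.561% of all kept genes. The median was 0.58 (others 0.12 to 0.36). The vacuolar trehalase gene ATH1 rose from 9.65 to 11.26, the glycogen phosphorylase gene GPH1 from 11.74 to 12.76 and the phosphoglucomutase gene PGM2 from 11.14 to 12.35. The neutral trehalase genes NTH1 and NTH2 had changes of 0.86 and 0.85, each above the other strains. No kept gene of glycogen or trehalose synthesis rose, with changes of 0.56 for the glycogen synthase gene GSY2, -0.71 for its relative GSY1 and 0.38 for the trehalose phosphate synthase gene TPS1. Further synthesis genes had changes of 0.64 for GLG2, 0.605 for TSL1, 0.46 for GLC3, 0.44 for TPS2, -0.09 for UGP1 and -0.12 for TPS3. The breakdown gene GDB1 had one of 0.62. These synthesis genes and GDB1 were named after their values were seen. PGM1, the second phosphoglucomutase, fell from 11.64 to 9.74. Its change of -1.90 was the lowest of all kept genes and lay below the other strains (-1.09 to -0.53).

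The opposite movement of PGM1 and PGM2 was one case of related enzymes that parted at 35 °C. NQM1 and TKL2 rose where TAL1 and TKL1, the main genes for the same steps of the pentose phosphate pathway, had changes of 0.35 and 0.24. SOL4, a 6-phosphogluconolactonase gene, rose from 11.40 to 12.96 while SOL3 went from 12.40 to 12.05. GPX1, a glutathione peroxidase gene, rose from 9.20 to 11.08 (others 0.12 to 0.81) while GPX2 went from 12.87 to 11.88 (-0.99, others -1.23 to -0.69). TSA2 rose by 2.49 beside 0.27 for TSA1, and the phosphoglycerate mutase homolog GPM2 by 2.33 beside 0.20 for GPM1. In the pyrimidine pathway URA10, a minor orotate phosphoribosyltransferase gene, rose from 9.38 to 11.20 and URA5, the major one, stood at 13.08 and 13.03. These pairs start from genes with large changes, so a smaller change in the second gene follows from that choice. Other relatives moved the same way, since ALD2, the relative of ALD3, rose from 10.54 to 11.81, and HYR1, a further relative of GPX1, went from 12.67 to 13.23. Probe sets of related genes can share signal, so the gap within a pair is uncertain.

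**Figure D3:**
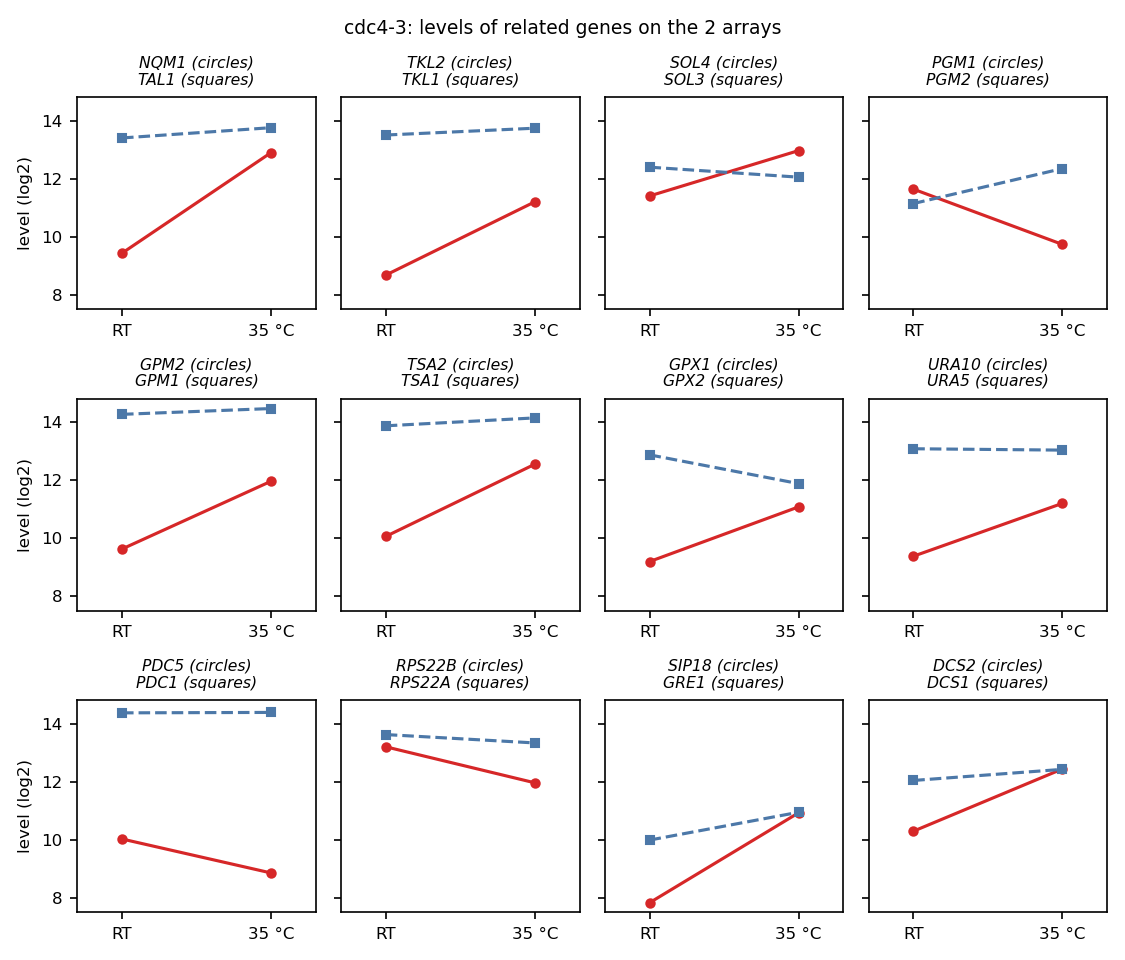
Level (log2) in cdc4-3 on the room temperature (RT) and 35 °C arrays for 12 pairs of related genes, the first named as circles with a solid line and the second as squares with a dashed line. PGM1 and PGM2 cross, from 11.64 and 11.14 to 9.74 and 12.35, and SOL4 and SOL3 cross as well, while PDC5 and RPS22B fell.

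Some pairs parted by a fall. PDC5, a minor pyruvate decarboxylase gene, fell from 10.03 to 8.86, a change of -1.17 below the other strains (-0.48 to -0.27), while PDC1 stood at 14.37 and 14.38. In the other strains PDC5 had levels of 9.35 to 10.18, at or under the percentile limit on 7 of the 8 arrays. The range it lay below is therefore mostly one of dim levels. RPS22B, one of the genes for a ribosomal protein of the small subunit, fell from 13.20 to 11.96 (-1.24, others -0.55 to -0.15), and RPS22A went from 13.62 to 13.33. RPS22B was the only one of 127 kept cytosolic ribosomal protein genes to change by at least 1, where 2.85% of all kept genes rose and 0.561% fell. MIG2, a glucose repressor gene, fell from 11.19 to 9.91 (others -0.90 to 0.03) beside 10.82 and 10.88 for MIG1. SIP18 and its relative GRE1 both went up, GRE1 from 9.99 to 10.95 with a change of 0.96 inside the range of the others (0.18 to 1.10).

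Osmotic and oxidative stress genes held several of the changes farthest from the other strains. GRE2, a methylglyoxal reductase gene, rose from 9.61 to 10.99, by 1.38, where the others ranged from -0.60 to 0.27. GPX1 lay 1.08 above the highest other strain. HBT1, a gene of cell shape in mating that is on neither list, lay 1.00 above its highest other strain. Of 15 kept osmotic and glycerol genes 4 rose and 0 fell, and GUT2, the mitochondrial glycerol phosphate dehydrogenase gene, went from 11.49 to 12.41 (0.92, others 0.04 to 0.47). GPD2, which acts in glycerol synthesis, went the other way from 10.02 to 9.36. Among 30 kept oxidative stress genes 4 rose, TSA2, GPX1, AAD10 and the glutaredoxin gene GRX1, and 0 fell. The shares over all kept genes were 2.85% and 0.561%.

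Cell wall and chaperone genes followed with smaller medians. Of 32 kept genes of the cell wall integrity pathway 7 rose and 1 fell, the median was 0.60 (others 0.17 to 0.48), and 16 lay above the range. Over all kept genes 2.85% rose and 28.2% lay above the range. The count above it was 11 after centring and 8 after quantile normalization, against 20.2% and 19% of all kept genes, so the last is near the background. GSC2, a glucan synthase subunit gene induced by wall stress, rose from 10.83 to 12.42, the aspartyl protease gene YPS3 from 9.75 to 11.49, and the wall protein genes PIR3 and PST1 from 11.89 to 13.27 and from 12.52 to 13.88. KDX1, a target of the pathway, rose from 10.43 to 11.66 (1.23, others -0.08 to 1.11). TIR3, a mannoprotein gene of cold and low oxygen, fell from 10.09 to 9.08. Among 35 kept chaperone genes 4 rose, HSP26, HSP31, SSA4 and SSE2, and 0 fell. HSP31, a glyoxalase and chaperone gene, went from 11.78 to 13.46 (1.68, others 0.76 to 1.59). SSA3, an Hsp70 gene, went from 10.82 to 11.47, and its change of 0.65 was below every other strain (1.08 to 1.64), while its relative SSA4 rose by 1.35.

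Amino acid synthesis genes, the classical targets of Gcn4, had small changes that lay higher than in the other strains. Over the arginine, lysine, histidine, branched-chain and aromatic lists together, 47 genes were kept, and none reached 1 in either direction. That is 0 risen and 0 fallen, against 2.85% and 0.561% of all kept genes. A change above 0 was found in 36 of them and one above the range in 34, against 62.7% and 28.2% of all kept genes, and 0 lay below the range. The count above the range was 27 after median centring and 19 after quantile normalization, against 20.2% and 19% of all kept genes. The median was 0.16 in cdc4-3 and between -0.30 and -0.08 in the others. In 13 of the 47 the change was above 0 in cdc4-3 and below 0 in all 4 others, a pattern found in 3.3% of all kept genes, where the reverse pattern was found in 1.4%.

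**Figure D4:**
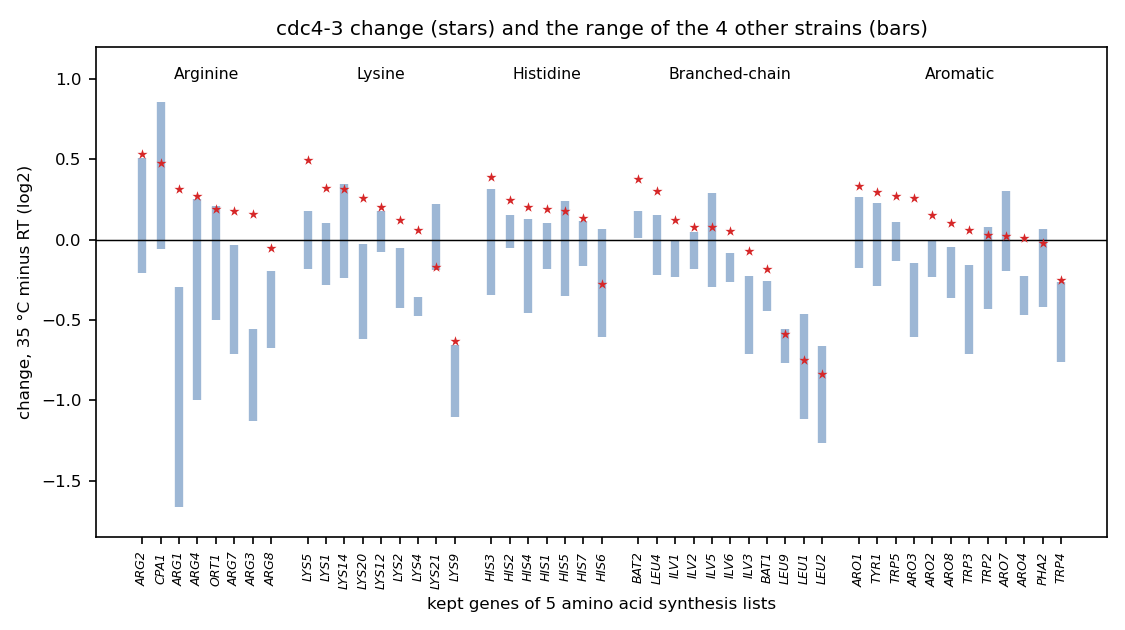
Change at 35 °C (log2, vertical axis) of the 47 kept amino acid synthesis genes in cdc4-3 (stars), with the range of the 4 other strains as bars, grouped by pathway. Stars lie above the bar for 34 genes, among them ARG1 at 0.31 over a bar from -1.66 to -0.29, and LEU1, LEU2 and LEU9 lie inside their bars.

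The arginine genes stood farthest from the other strains. ARG1, the argininosuccinate synthetase gene, went from 13.57 to 13.89 (0.31, others -1.66 to -0.29). ARG3, the ornithine carbamoyltransferase gene, went from 13.09 to 13.25 (0.16, others -1.13 to -0.56), and ARG7 from 12.62 to 12.79 (0.18, others -0.71 to -0.04). All 8 measured arginine genes were kept, and 6 lay above the range, or 4 after centring, against 28.2% and 20.2% of all kept genes. The list median was 0.23, against -0.65 to -0.07 elsewhere. In lysine synthesis LYS20, a homocitrate synthase gene, went from 13.33 to 13.60 (0.26, others -0.62 to -0.02), and LYS4, the homoaconitase gene, from 13.13 to 13.19 (0.06, others -0.48 to -0.35). LYS9 was lower at 35 °C in every strain, with -0.63 in cdc4-3 and -1.10 to -0.65 in the others. The histidine genes HIS4 and HIS1 had changes of 0.21 and 0.19, each above the range. ARO3, which opens the aromatic pathway, went from 13.03 to 13.29 (0.26, others -0.61 to -0.14).

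The leucine genes LEU1, LEU2 and LEU9 did not share this pattern. LEU2 went from 11.97 to 11.13, LEU1 from 13.38 to 12.63 and LEU9 from 12.82 to 12.23, with changes of -0.84, -0.75 and -0.59 that lay inside the range of the other strains. BAT2 and LEU4, a cytosolic transaminase gene and an isopropylmalate synthase gene, had changes of 0.38 and 0.30, each above the range. Over the 11 kept branched-chain genes the median was 0.06 as deposited, below the 0.09 of all kept genes, and -0.07 after centring. Of these genes 7 lay above the range, or 6 after centring and 3 after quantile normalization. The shares of all kept genes were 28.2%, 20.2% and 19%.

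Other Gcn4-regulated genes included larger rises, 3 of them in glycine and folate metabolism. Of 26 kept, 4 rose and 0 fell, against 2.85% and 0.561% of all kept genes. GCV1 and GCV2, subunits of the mitochondrial glycine cleavage complex, rose from 11.71 to 13.63 and from 11.85 to 13.59. MTD1, a folate dehydrogenase gene, rose from 11.96 to 13.23, and UGA3, an activator of GABA genes, from 9.87 to 10.98. GCV1 and MTD1 stayed inside the range of the other strains, since skp1-11 rose further in both, while GCV2 was above it (1.75, others 0.46 to 1.38). The purine gene ADE17 rose from 11.71 to 13.25 and the serine hydroxymethyltransferase gene SHM2 from 12.86 to 14.03. These 5, GCV1, GCV2, MTD1, ADE17 and SHM2, are the rises among 24 kept purine and folate genes, where 0 fell and the median was 0.35 (others 0.05 to 0.28). SNZ1 and SNO1, a neighbouring gene pair of vitamin B6 synthesis, had like changes of 0.70 each, above the other strains (-0.26 to 0.34 and -0.80 to 0.41).

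Sulfur amino acid genes, which are held back by the F-box protein Met30 rather than Cdc4, were also higher at 35 °C. Of 37 measured, 34 were kept, 7 rose and 0 fell, against 2.85% and 0.561% of all kept genes. The median was 0.54 (others 0.36 to 0.94). JLP1, a sulfonate dioxygenase gene, rose from 8.03 to 10.27, the sulfate permease gene SUL2 from 10.63 to 11.93, MET32, an activator of the pathway, from 10.28 to 11.62, and the homoserine acetyltransferase gene MET2 from 10.29 to 11.56. Each stayed inside the range of the other strains. STR3, the cystathionine beta-lyase gene, rose from 10.84 to 12.06, and its change of 1.22 lay below every other strain (1.32 to 3.68). In all, 5 genes of the list lay above the range and 6 below it, and after centring 5 and 11. The shares of all kept genes were 28.2% above and 11.1% below, and after centring 20.2% and 18.5%. MET8, a siroheme synthesis gene, and MET13, a folate reductase gene, both named after their values were seen, had changes of 0.70 (others 1.23 to 2.12) and 0.39 (others 0.59 to 1.92).

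Genes of mitochondrial respiration moved by small amounts and mostly upward. Of 39 kept genes of the respiratory chain and ATP synthase, 1 rose and 0 fell, against 2.85% and 0.561% of all kept genes. A change above 0 was found in 37 and one above the range of the other strains in 35, against 62.7% and 28.2% of all kept genes. The count above the range was 29 after median centring and 20 after quantile normalization, against 20.2% and 19% of all kept genes. The median was 0.25 in cdc4-3 and 0.02, 0.04, 0.02 and -0.16 in cdc53-1, cdc34-3, skp1-11 and skp1-25, and after centring it was 0.13 in cdc4-3. The rise was COX5B, the hypoxic isoform of a cytochrome oxidase subunit, which went from 10.22 to 11.50 (others 0.24 to 0.81). STF1 and INH1, which encode inhibitors of the ATP synthase, went from 12.13 to 13.04 and from 12.43 to 12.92, and the succinate dehydrogenase gene SDH3 from 12.14 to 12.68. QCR2, a subunit of the cytochrome bc1 complex, went from 12.51 to 12.95 (0.45, others -0.03 to 0.23).

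The citric acid cycle and the mitochondrial ribosome showed the same tendency. Among 25 kept genes of the citric acid and glyoxylate cycles 13 lay above the range, the median was 0.24 (others -0.09 to 0.15), and 1 rose, the lactate dehydrogenase gene CYB2, from 9.50 to 11.67. The fumarase gene FUM1 went from 12.54 to 13.12 (0.58, others 0.12 to 0.22). HAP4, the activator of respiratory genes, had a change of -0.50, and was named after its value was seen. Of 69 mitochondrial ribosomal protein genes, all kept, 0 rose and 0 fell, 41 lay above the range, or 31 after centring, and the median was 0.18 (others -0.15 to 0.09). For both lists the shares of all kept genes were 2.85% risen, 0.561% fallen and 28.2% above the range, or 20.2% after centring. Cytosolic ribosomal protein genes had a median of 0.02 and ribosome biogenesis genes one of -0.07, both below the 0.09 of all kept genes.

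Cell cycle transcripts differed by phase. These are bulk cultures, in which fewer cells in a phase and less RNA per cell cannot be told apart. Among 31 kept mitotic genes of the CLB2 cluster 0 rose and 5 fell, the median was -0.33, and 8 lay below the range, or 12 after centring. Over all kept genes 0.561% fell and 11.1% lay below the range, or 18.5% after centring. The list median was lower still in cdc53-1, at -0.51, and was -0.23, -0.18 and -0.05 in cdc34-3, skp1-11 and skp1-25. The mitotic cyclin gene CLB2 fell from 10.95 to 9.51 (-1.43, others -1.12 to -0.38). HOF1, which acts in cytokinesis, fell from 10.81 to 9.38, and CHS2, the septum chitin synthase gene, from 11.41 to 10.29, each also below the range. CDC20, whose product turns on the anaphase-promoting complex, fell from 10.70 to 9.60 and the polo kinase gene CDC5 from 11.68 to 10.61, both inside it. The related cyclin gene CLB1 had a change of -0.46, and CLB3 and CLB4 changes of -0.13 and -0.15.

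G1/S genes, driven by the activators SBF and MBF, did not reach 1 in either direction in cdc4-3. Of 49 kept, 0 rose and 0 fell, against 2.85% and 0.561% of all kept genes. The median was 0.16, between -0.68 in cdc53-1 and 0.58 in cdc34-3, and it was 0.04 after centring. Above the range lay 2 of the 49 and below it 0, against 28.2% and 11.1% of all kept genes. The G1 cyclin gene CLN2 went from 11.53 to 11.84 and CLN1 from 11.04 to 10.99, where the other strains spanned -1.67 to 1.43 and -2.15 to 1.37. YOX1, a repressor gene, went from 11.11 to 12.02, PCL1, a cyclin gene, from 11.27 to 11.80, and the S-phase cyclin gene CLB5 from 10.81 to 11.00. Core histone genes, which mark S phase, had a median of 0.02, with HTA2 at 13.54 and 13.76 and HTB2 at 12.75 and 12.08.

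Mating genes were mostly lower. Among 20 kept pheromone response genes 7 had a change above 0, 1 rose and 2 fell. Of all kept genes 62.7% had a change above 0, 2.85% rose and 0.561% fell. Below the range lay 4 of the 20 (11.1% of all kept genes) and above it 0 (28.2%). Since 12 of the 20 were dim on both cdc53-1 arrays, the range was also taken over cdc34-3, skp1-11 and skp1-25 alone, and then 4 lay below it and 4 above, against 20% and 32.2% of all kept genes. SST2, which switches off pheromone signalling, fell from 10.78 to 9.14, a change of -1.63 below the other strains (-1.21 to 0.02, or -1.21 to -0.17 without cdc53-1). AGA1 went from 10.54 to 9.59 (-0.96, others -0.80 to -0.09, or -0.80 to -0.47 without cdc53-1), and the G protein genes STE4 and GPA1 from 12.13 to 11.74 and from 11.62 to 11.50. The rise was PRM5, from 11.48 to 12.68, which is also on the cell wall list. FUS1, a cell fusion gene, was not kept, at 9.81 and 8.61, and was named after its value was seen.

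Iron and copper genes went in different directions. Of 27 kept genes of the iron uptake regulon 0 rose and 2 fell, 10 lay below the range and 2 above it, or 13 and 1 after centring, and the median was -0.15 (others -0.08 to 0.18). Of all kept genes 0.561% fell, 11.1% lay below the range and 28.2% above it, or 18.5% and 20.2% after centring. ARN2, a siderophore transporter gene, fell from 11.50 to 10.07 (-1.43, others -0.62 to -0.01). FRE3, a ferric reductase gene for siderophores, fell from 10.27 to 8.80 (-1.47, others -1.07 to 0.18). In cdc53-1, cdc34-3 and skp1-11 FRE3 had levels of 7.6 to 8.9, under the cdc4-3 limit for kept genes. TIS11, also called CTH2, which degrades mRNAs when iron is scarce, went from 10.14 to 9.50, and its change of -0.64 was the only one of the 5 strains below 0 (others 0.04 to 1.49). TIS11 was at or under the percentile limit on 4 of the 8 arrays of the other strains, and ARN2 on 2. SIT1, another siderophore transporter gene, went from 12.64 to 11.80, inside the range. FET4, a low-affinity iron transporter on the zinc list, went from 12.04 to 11.12 (-0.93, others -0.84 to 0.36). AFT2, an activator of the regulon, went from 9.69 to 10.50.

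Among 9 kept copper and metallothionein genes 1 rose and 0 fell, against 2.85% and 0.561% of all kept genes. Above the range lay 6 of them, both as deposited and after centring, against 28.2% and 20.2% of all kept genes. FRE7, a copper-regulated reductase gene, rose from 10.85 to 12.35 (others 0.12 to 0.88). The metallothionein genes CUP1-1 and CRS5 went from 14.11 to 14.46 and from 10.36 to 11.09, and the copper transporter gene CTR1 from 12.89 to 13.32, each above the range. CUP1-1 has a near-identical neighbouring copy, so its level may join both.

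Single phosphate, hexose and lipid genes had large changes. Of 22 kept phosphate genes 1 rose and 1 fell. The shares of all kept genes were 2.85% risen and 0.561% fallen, so 1 gene in a list of 22 is no result about the list. The fall was PHO11, an acid phosphatase gene, from 13.39 to 12.19, and the vacuolar polyphosphate genes VTC2, VTC3 and VTC4 had changes of -0.57, -0.66 and -0.37, all below the other strains. VTC2 and VTC4 were named after their values were seen. The hexose transporter genes HXT4 and HXT7 rose from 11.58 to 12.71 and from 12.49 to 13.52, both above the range (others -0.39 to 0.83 and 0.37 to 0.74). OPI3, which makes phosphatidylcholine by methylation, rose from 11.75 to 12.97 (1.22, others 0.22 to 0.57), and was the only rise among 22 kept phospholipid genes.

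Outside these groups, the changes farthest below the other strains included genes of RNA decay and chromatin. DHH1, a decapping activator and RNA helicase gene, fell from 11.12 to 9.97, a change of -1.15 where the others stayed between -0.23 and 0.01. CHD1, a chromatin remodeler gene, went from 11.80 to 11.31 (-0.48, others 0.27 to 0.59), and ATM1, a mitochondrial iron-sulfur transporter gene, from 10.82 to 10.10 (-0.72, others -0.08 to 0.45). DHH1 was thus lower by over 2-fold on an array pair where the other strains showed almost no difference, and CHD1 had the opposite sign in cdc4-3 from all 4 others. FDH1, a formate dehydrogenase gene, stood at 10.04 and 9.94 in cdc4-3 and had changes of 0.52 to 2.48 elsewhere. Its levels in the other strains ran from 5.59 to 8.07, at or under the 25th percentile on all 8 arrays, so the changes elsewhere are between dim levels. YAR009C, a gene of a Ty1 retrotransposon, went from 11.75 to 10.92 (others 0.08 to 1.05), and as Ty1 has many near-identical copies this level may join several.

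Among the 15 largest falls, several were shared. The regulator gene HMS2 fell from 10.60 to 9.22 (others -1.14 to -0.70), SFG1, a regulator of filamentous growth, from 10.23 to 9.03 (others -1.12 to -0.65) and the decarboxylase gene PAD1 from 10.81 to 9.61 (others -0.75 to -0.59). YLR108C fell from 11.19 to 9.84 and YMR030W-A from 10.58 to 9.06, each inside a range that was below 0 throughout. These 5 were therefore lower at 35 °C in every strain.

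Farthest above the range, after SIP18, GRE2, GPX1 and HBT1, came UIP4, URA10, TKL2, PAI3, BDH2 and SPI1, by 0.86 to 0.75. HBT1 rose from 9.68 to 11.70 (others 0.56 to 1.02), the nuclear envelope gene UIP4 from 9.26 to 10.97 (others 0.22 to 0.84), and PAI3, which encodes an inhibitor of the vacuolar protease Pep4, from 10.08 to 12.40 (others 0.78 to 1.55). BDH2, a butanediol dehydrogenase homolog, rose from 9.44 to 10.52, while BDH1 went from 12.65 to 13.31. All of these genes had a change above 0 in cdc4-3, and GRE2, SIP18 and BDH2 had one below 0 in at least 1 other strain. UIP4 and BDH2 were at or under the 25th percentile on all 8 arrays of the other strains, so their range there is one of dim levels. GPX1 was so on 7 of the 8, SIP18 and TKL2 on 6, HBT1 and URA10 on 5, SPI1 on 4, PAI3 on 3 and GRE2 on 2. Other large rises were SPG4, a stationary phase gene, from 7.90 to 10.18 (others 0.75 to 1.85), the riboflavin transporter gene MCH5 from 10.10 to 12.32 (others 1.05 to 1.99) and GPG1, a G protein partner gene, from 10.07 to 12.43 (others 1.70 to 2.56). Of these GPG1 was inside the range.

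**Figure D5:**
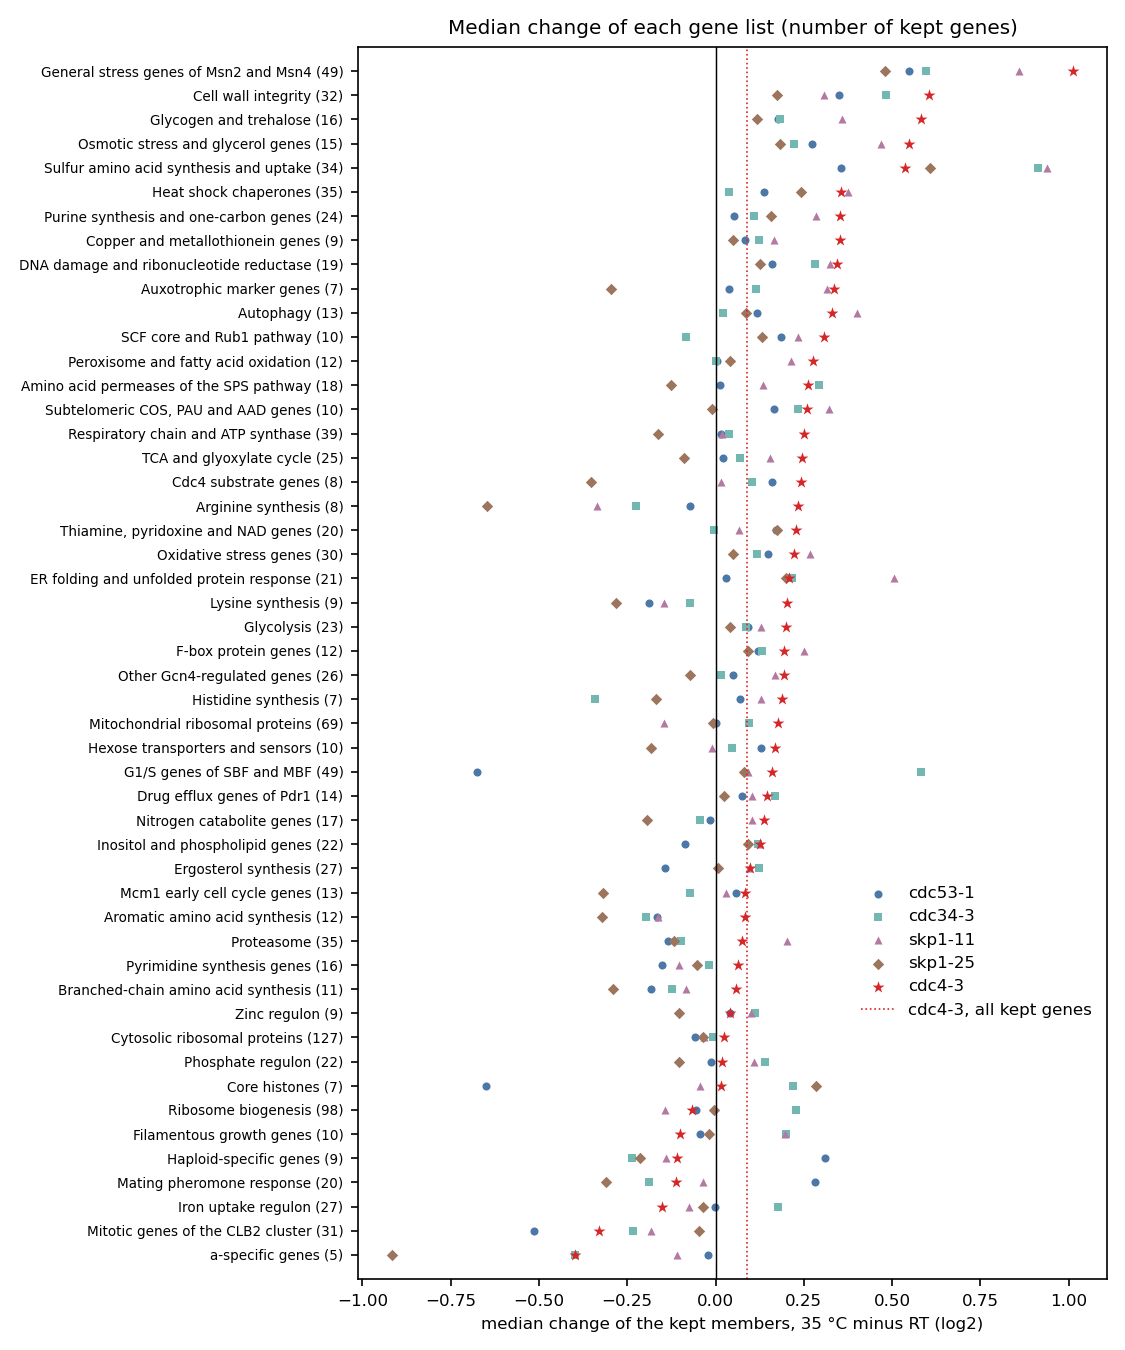
Median change at 35 °C (log2, horizontal axis) of the kept members of each reported gene list with at least 5 kept genes, in cdc4-3 (stars) and each of the 4 other strains (symbols), with the number of kept genes in brackets and the cdc4-3 median of all kept genes as a dotted line. General stress genes lead at 1.01, the arginine list stands at 0.23 where every other strain is below 0, and the CLB2 cluster stands at -0.33.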

How the data were processed

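Total RNA from each culture was labelled as biotin cRNA and hybridised to an Affymetrix yeast array, per the labels' protocols. The deposited values were taken as log2 levels, since they run from 0 to under 15. The sources used here give neither the base nor the probe summary and normalization. Of 5716 probe sets, 5498 carried 1 gene symbol and 218 were unnamed and not used. Through RefSeq gene identifiers (R64) 12 symbols were updated, and for 47 genes with several probe sets the brightest on average over the 10 arrays was used.

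Changes, the limit at the 25th percentile, ranges and list counts were computed in Python 3.11.15 with pandas 2.3.3 and tested on simulated data. No p-value was computed, because each strain has 1 array per temperature. The 54 gene lists and the choice of genes were made with earlier results of these data known, and the result of 1 list is not reported here. Genes named are the 15 largest rises and falls, the 10 farthest beyond the range each way, up to 6 members a list (all of lists up to 12), SCF, substrate, cyclin, mating-type and marker genes, and relatives of these. Outside this rule, DCS2, HSP12, MSN2, MSN4, SOL3, SOL4, TFS1 and TIR3 were chosen after their values were seen. Alternatives were median centring, quantile normalization, the mean of probe sets, other filters, 1.5-fold, and the range without each strain, with list counts without cdc53-1 added after seeing the data. The number of arrays limits the precision. No sequences are shown.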

Additional observations from a re-analysis of the deposited data

Results flagged for a closer look

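In 6 gene lists the median change was above 0 in cdc4-3 and below 0 in all 4 other strains, and the difference was not tested. For arginine synthesis it was 0.233 in cdc4-3 and -0.647 to -0.0725 in the others, for lysine synthesis 0.203 and -0.283 to -0.073, for aromatic amino acid synthesis 0.083 and -0.323 to -0.162, and for branched-chain amino acid synthesis 0.057 and -0.291 to -0.083. For pyrimidine synthesis it was 0.065 and -0.152 to -0.0175, and for cytosolic ribosomal proteins 0.025 and -0.057 to -0.007. After median centring the arginine and lysine medians stayed above 0 in cdc4-3, at 0.109 and 0.079, and the other four were below 0.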

How the results depend on the processing

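The 122 rises and 24 falls became 250 and 61 with no filter and 380 and 113 at 1.5-fold, and the falls were 41 after median centring, 38 after quantile normalization and 11 with the filter at the array median. The 32 genes above the range by 0.5 and the 12 below it became 55 and 41 with no filter, 66 and 23 without cdc53-1 in the range, 56 above without skp1-11 and 29 below without skp1-25, with 19 below after quantile normalization and 6 with the filter at the array median. List medians after median centring and quantile normalization were 0.079 and 0.0072 for lysine, 0.127 and 0.0732 for respiration and -0.275 under both for iron. Medians changed sign in these scalings for branched-chain (-0.067, -0.1703), aromatic (-0.0405, -0.0572), histone (-0.109, -0.2142), Mcm1 (-0.04, -0.0394), zinc (-0.084, -0.0842), phosphate (-0.107, -0.0935), pyrimidine (-0.0595, -0.0555), ergosterol (-0.027, -0.0426), proteasome (-0.049, -0.0568) and cytosolic ribosomal protein genes (-0.099, -0.1221), and for phospholipid genes after quantile normalization (-0.0309). The histone median was -0.106 with the mean of probe sets, and with no filter the branched-chain median was -0.0075 and the early meiosis median 0.61. With the filter at the array median the zinc and pyrimidine medians were -0.035 and -0.0325. The scalings lower the 35 °C array against the room temperature array, and other causes were not tested. Each change sets the 35 °C array of a strain against its own room temperature array. No test over replicate pairs was possible, because the labels carry no replicate numbers and each strain has 1 array per temperature.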

Other observations

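Dim genes, which the comparisons leave out, changed by at least 1 more often in cdc4-3: 128 of the 1172 genes not kept were higher at 35 °C (10.9%) and 37 lower (3.16%). Early meiosis genes were nearly all in this class, with 2 of 25 kept, and 7 of the 25 were higher by at least 1. Levels so low give no firm order, and a part of array background in these changes was not tested.

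Pyrimidine genes split in cdc4-3. PPR1, the activator of the pathway, went from 9.07 to 10.14 and URA8, a CTP synthase gene, from 11.62 to 12.20, each above the other strains, while URA4 and URA1 went from 13.29 to 12.51 and from 13.46 to 12.88, each below them. Of 19 kept genes of DNA damage and ribonucleotide reductase 1 rose, RAD59, from 9.47 to 10.65, which is near the 2.85% of all kept genes. The list median was 0.34, against 0.32 in skp1-11 and 0.28 in cdc34-3, and after centring these were 0.22, 0.22 and 0.21. Above the range lay 9 of the 19, or 6 after quantile normalization, against 28.2% and 19% of all kept genes, among them RAD7, RAD2 and RAD54 with changes of 0.90, 0.85 and 0.66. Of 12 kept genes of peroxisomes and fatty acid oxidation 0 changed by at least 1, where 2.85% of all kept genes rose and 0.561% fell. PEX21, a peroxisomal import gene, stood at 10.94 and 11.69 (0.75, others -0.16 to 0.55).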
